A study of Danio rerio with 14 samples.

Results

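The 200 transcripts described here were the ones with the highest level, relative to untreated bmp7 mutants, in zebrafish bmp7 mutant embryos whose protein synthesis had been blocked. They were chosen by a rule that used measured values. Each of 13830 genes, represented by the 1 transcript that the deposited table marks as best, was ranked by the log2 ratio of its mean level in bmp7 mutants treated with the translation inhibitor cycloheximide (CHX) to its mean level in untreated bmp7 mutants at 6 hours post fertilization (hpf). Levels were in CPM, the read count of a transcript divided by the total count of its library and scaled to a common total, and 1 CPM was added to both means. The 200 highest made up 1.45% of the genes. Their log2 ratios ran from 3.04 to 7.19 with a median of 3.47, against a median of 0.17 for all genes, and since the rule used those values they are a description with no test.

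All 14 libraries came from pools of whole embryos sequenced as poly(A)-selected RNA. Mutant bmp7-/- embryos given 10 ug/ml CHX for 30 minutes from 4 hpf and then injected with 3 nl of 120 nM BMP2/7 heterodimer (10 pg) gave 3 libraries, and bmp7-/- embryos given CHX without BMP2/7 gave 3 more. Both sets held 50 embryos per library and were collected 90 minutes after injection, although the labels give their stage as 4 hpf. Untreated bmp7-/- embryos and untreated wild-type embryos were sampled at 6 hpf and at 8 hpf, with 2 libraries of 40 embryos in each of these 4 groups. The mutants carry the sb1aub allele of bmp7a and were offspring of homozygous parents that had been rescued with bmp7a mRNA, so line and genotype cannot be told apart, and the column headings of the control libraries give a heterozygous genotype where the labels say wild-type. No library of untreated embryos at 4 hpf and none of vehicle-injected embryos was analysed here. A transcript that was kept from an earlier stage and one that was newly made under CHX therefore cannot be told apart in these data, nor can the effects of CHX, of the labelled stage and of the collection when treated libraries are set against untreated ones. In bulk samples, fewer cells of a type and less RNA per cell cannot be told apart either.

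CHX stops ribosomes during elongation, so that transcription factors and RNA-degrading proteins made after its addition are missing while RNA synthesis can continue. In the zebrafish, the egg's own transcripts are cleared around and after the onset of zygotic transcription, partly by zygotically encoded products, and early zygotic genes are often expressed in short pulses that later proteins switch off. Transcripts of immediate-early genes are a textbook example of RNAs that accumulate when translation is blocked. Bmp7 forms heterodimers with Bmp2, and these activate Smad5 in the ventral side of the gastrula, where they specify epidermis, blood and other ventral fates.

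Total counts ran between 5034277 and 23153881 per library, the lowest being replicate 1 of the bmp7 mutants at 8 hpf. The bmp7a transcript itself stood outside the 200, at rank 262. It was at 26.4, 34.5 and 34.0 CPM in mutants with CHX and BMP2/7 and at 22.4, 25.9 and 17.8 CPM in mutants with CHX, against 2.696 and 1.56 CPM in untreated mutants and 54.6 and 52.5 CPM in wild-type embryos, the last 2 groups at 6 hpf. Its level thus did not settle the genotype of the CHX-treated libraries. Of 9 genes at least 16-fold apart between the genotypes at both stages, 8 were nearer to the untreated mutants in both CHX-treated groups, and none of the 9 was among the 200. Summed over 5 measured gastrula markers, each library held between 1399 and 5596 CPM, while 4 measured markers of later organs summed to less than 1 CPM in every library.

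As a set, the 200 transcripts were much less abundant in all untreated groups than in both CHX-treated groups. Together they took between 2.46% and 3.14% of all counts in the 6 CHX-treated libraries, against between 0.148% and 0.209% in the 8 untreated ones. Their median level was 56.9 CPM in mutants with CHX and BMP2/7 and 52.7 CPM in mutants with CHX, where all genes had 6.77 and 6.43 CPM. At 6 hpf it was 3.33 CPM in untreated mutants and 3.95 CPM in wild-type embryos, where all genes had 3.65 and 4.39 CPM. At 8 hpf it was 2.65 CPM in mutants and 3.61 CPM in wild-type embryos, where all genes had 4.21 and 5.07 CPM. For 191 of the 200, all 6 CHX-treated libraries lay above all 8 untreated libraries, which was true of 25.2% of all genes; the rule fixed part of this pattern. The exceptions were rx3, szl, znf710a, rhoub, atp2b4, ago4, bmp4, zgc:113314 and pard3ba, for which at least 1 untreated library reached the level of a CHX-treated one. The median coefficient of variation of the 200 was 14% over the 3 libraries with CHX and BMP2/7 and 21.4% over the 3 with CHX, against 27.5% in untreated mutants and 24.4% in wild-type embryos at 6 hpf.

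**Figure D1:**
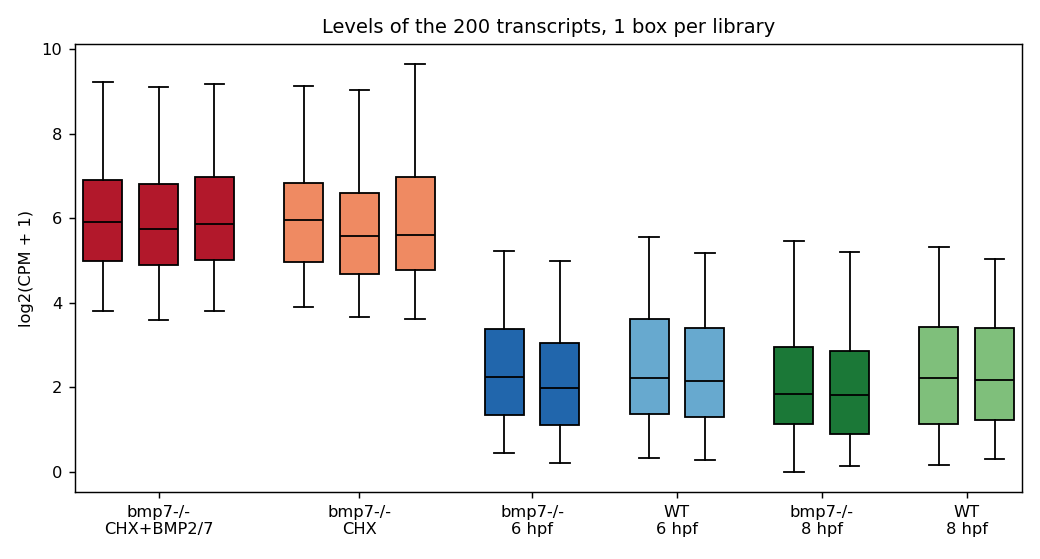
Levels of the 200 transcripts in each of the 14 libraries, as log2(CPM + 1) on the vertical axis. Boxes span the quartiles with the median as a line and whiskers reach the 5th and 95th percentiles. The 6 CHX-treated libraries have medians between 47.2 and 60.9 CPM, and the 8 untreated libraries have medians between 2.51 and 3.72 CPM.

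At the border of the list the values changed little. The last members were pard3ba, with a log2 ratio of 3.05, and baiap2a, with 3.04, and the first genes outside were copz2 and plxna3, both with 3.04. For pard3ba the CHX libraries were at 115.6, 161 and 59.5 CPM, against 17.996 and 7.26 CPM in untreated mutants at 6 hpf. For baiap2a they were at 73.4, 77.4 and 40.9 CPM, against 9.91 and 3.82 CPM. In both, 1 CHX library lay well under the other two and the untreated libraries differed by more than 2-fold from each other.

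What the 200 share was described with gene lists. The p53 and DNA damage list gave 6 of its 19 measured genes (31.6%), the immediate-early and AP-1 list gave 8 of 52 (15.4%), and the egg and oocyte list gave 5 of 38 (13.2%), each beside the 1.45% of all genes. From the list of germ plasm and germ cell genes came 2 of 20, from dorsal-ventral and BMP pathway genes 4 of 49, from blastula pluripotency-type factors 2 of 24, from Nodal ligands, Lefty and mesendoderm factors 3 of 37, and from Notch and her genes 2 of 29. Cytosolic ribosomal protein genes (83 measured), enveloping layer genes (34), yolk syncytial layer genes (25), heat shock and J-domain genes (67), proteasome subunit genes (51) and Hox genes (45) gave none, and neither did 6 further lists of housekeeping and stress response genes. Solute carrier genes gave 4 of 290 and genes known only by a clone or project identifier gave 27 of 1625, shares close to that of all genes. The lists were drawn up with earlier results of these data known, and the rule chose the members by level. These shares are therefore counts with no test.

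**Figure D2:**
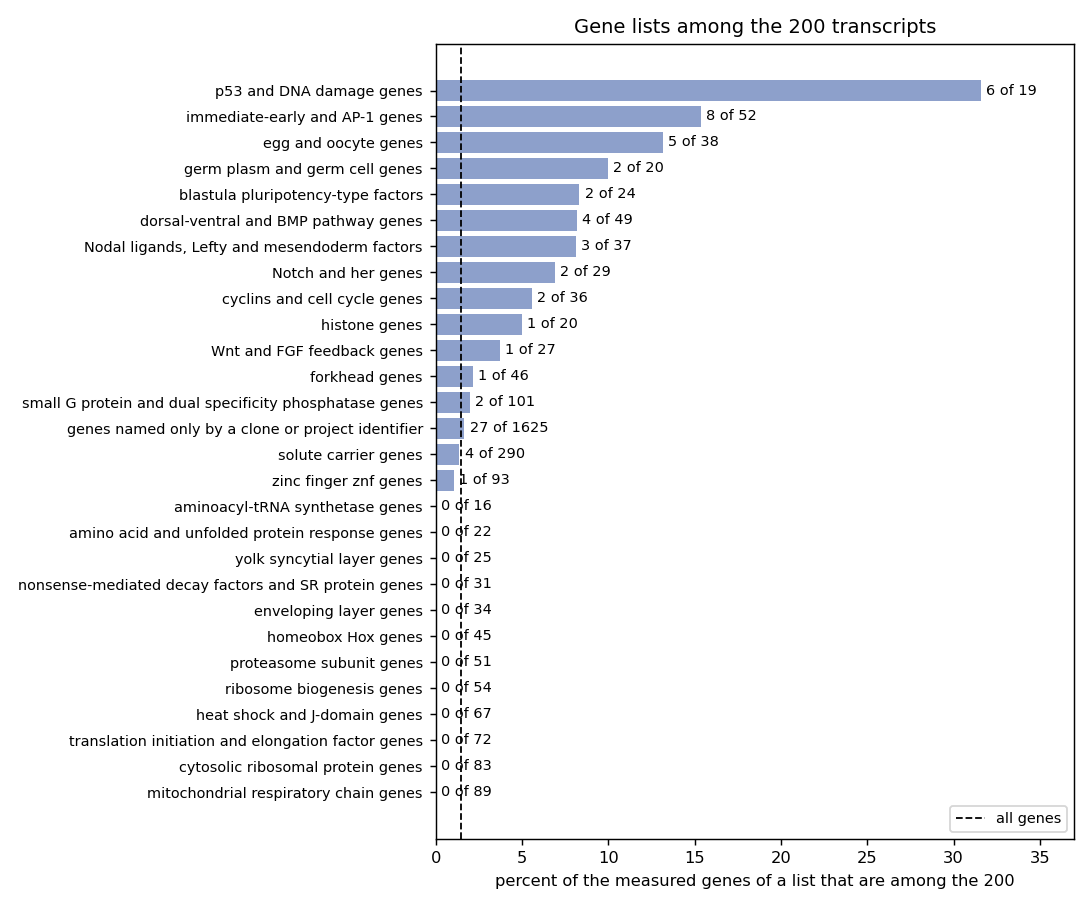
Share of each gene list that falls among the 200 transcripts, in percent of the genes of the list that were measured, with the counts beside each bar. The dashed line marks the 1.45% for all genes, and the lists were drawn up with earlier results of these data known. The p53 and DNA damage list reaches 6 of 19 and the immediate-early list 8 of 52, while 12 lists give none.

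The 20 highest ranks held si:dkey-261j4.5, zgc:136538, drl, si:dkey-261j4.3, si:rp71-45k5.2, zgc:173816, lrmp, en2b, zgc:100951, nanog, her5, klf11a, rx3, blf, cyp26c1, mixl1, tatdn2, fgf4, slc16a3 and szl, in that order. The highest ratios belonged to a group of draculin-type zinc finger genes. Draculin (drl) is a zinc finger gene known from the lateral mesoderm of the zebrafish embryo, and RefSeq names its relatives si:dkey-261j4.5, si:dkey-261j4.4 and si:dkey-261j4.3 drll.3, drll.2 and drll.1. In the RefSeq gene order si:dkey-261j4.5, si:dkey-261j4.4, drl and si:dkey-261j4.3, ranked 1, 25, 3 and 4, follow each other without another measured gene between them. Transcript si:dkey-261j4.5 was at 1569.9, 1232 and 1864 CPM in mutants with CHX and BMP2/7 and at 2059, 1671 and 2346 CPM in mutants with CHX. In untreated embryos at 6 hpf it was at 17.7 and 8.04 CPM in mutants and at 66.96 and 30.6 CPM in wild-type embryos. In both genotypes the untreated levels were far below every CHX-treated one, and the mutant libraries lay under the wild-type ones. Counts of drl and of zgc:136538, ranked 3 and 2, agreed within 5% in every library, so these are 1 signal whose gene is uncertain. For drl the levels were 247, 263 and 258 CPM with CHX and BMP2/7 and 314, 390.2 and 336 CPM with CHX, against 1.75 and 1.17 CPM in untreated mutants and 12.02 and 3.41 CPM in wild-type embryos at 6 hpf. Over the whole list, 10 of the 197 members placed in the RefSeq order sat directly beside another member, in 4 runs.

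Regulators of the blastula and of mesendoderm followed the same pattern. The zinc finger gene blf, which acts in gastrulation movements and blood formation of the zebrafish, was at 1220.3, 1512 and 1640.3 CPM with CHX and BMP2/7 and at 1327, 1620.8 and 1711 CPM with CHX, against 74.5 and 40.3 CPM in untreated mutants and 62.97 and 38.1 CPM in wild-type embryos at 6 hpf. Its treated groups overlapped and its untreated levels at 6 hpf did not separate the genotypes. At 8 hpf blf was at 51.4 and 58.3 CPM in mutants, under the 129.8 and 87.2 CPM of wild-type embryos, and was not called. Nanog, a homeodomain factor supplied by the egg that helps to start zygotic transcription, was at 1438, 1191 and 1504 CPM in mutants with CHX and BMP2/7 and at 1827, 1138 and 1528 CPM in mutants with CHX. Untreated mutants had 61.1 and 31.0 CPM and wild-type embryos 24.8 and 30.2 CPM at 6 hpf. All 4 libraries lay far below the treated ones. Both mutant libraries lay above the wild-type ones, though 31.0 and 30.2 CPM are close. At 8 hpf the order was reversed without a call, with 22.6 and 11.3 CPM in mutants and 25.97 and 24.7 CPM in wild-type embryos. Levels of mixl1, a homeobox gene induced by Nodal in the mesendoderm, were 1098, 1146 and 748 CPM with CHX and BMP2/7 and 790.3, 950.1 and 815 CPM with CHX, against 48.7 and 19.97 CPM in untreated mutants and 20.97 and 29.9 CPM in wild-type embryos at 6 hpf. The treated groups overlapped each other and were apart from both untreated ones. The Nodal ligand gene ndr1 (squint) was at 31.7, 28.3 and 19.7 CPM with CHX and BMP2/7 and at 38.6, 37.8 and 33.4 CPM with CHX, against 2.04 and 1.48 CPM in untreated mutants and 0.307 and 0.346 CPM in wild-type embryos at 6 hpf. All treated libraries lay above all untreated ones. The growth factor genes fgf17 and fgf4 also belonged to the 200, with means of 406 and 31.9 CPM in mutants with CHX and BMP2/7 and of 387 and 59.1 CPM in mutants with CHX.

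Genes known from the anterior neural plate of later stages were also found, and are grouped here after their values were seen. Transcripts of en2b, an engrailed gene of the midbrain-hindbrain boundary, were at 51.1, 31.3 and 50.5 CPM with CHX and BMP2/7 and at 46.8, 31.2 and 61.9 CPM with CHX. Every untreated library had less than 0.4 CPM of it. Her5, a bHLH repressor of the same boundary, was at 267, 144 and 356 CPM with CHX and BMP2/7 and at 352, 160.0 and 511 CPM with CHX, against 9.62 and 10.5 CPM in untreated mutants and 4.86 and 6.69 CPM in wild-type embryos at 6 hpf. In both treated groups replicate 2 was the lowest and replicate 3 the highest. The eye field homeobox gene rx3 was at 12.2, 9.57 and 24.4 CPM with CHX and BMP2/7 and at 30.1, 16.9 and 42.0 CPM with CHX, with at most 0.256 CPM in any untreated library of 6 hpf. Cyp26c1, which encodes an enzyme that degrades retinoic acid, averaged 25.6 ± 8.35 CPM with CHX and BMP2/7 and 38.8 ± 3.98 CPM with CHX (SD, n = 3 each), against 0.643 ± 0.0844 CPM in untreated mutants and 0.526 ± 0.600 CPM in wild-type embryos (SD, n = 2 each).

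Genes of the p53 and immediate-early lists came next. The unfolded protein response list (22 measured) and the heat shock list (67) gave no member. At the 1.45% share of all genes, lists of this size can give none, so no contrast is read from this. Gadd45bb and gadd45aa encode small proteins induced by growth arrest and DNA damage, cdkn1a encodes the cyclin-dependent kinase inhibitor p21, and bbc3 encodes the pro-apoptotic protein Puma. Levels of gadd45bb were 1408, 1246 and 1222 CPM with CHX and BMP2/7 and 1604, 1654 and 1503 CPM with CHX, against 170.3 and 180.3 CPM in untreated mutants and 144 and 106 CPM in wild-type embryos at 6 hpf. The treated libraries were close to each other and far above the untreated ones. For cdkn1a they were 88.3, 66.3 and 104 CPM with CHX and BMP2/7 and 91.7, 72.4 and 147 CPM with CHX, against 6.92 and 5.85 CPM in untreated mutants and 3.17 and 4.75 CPM in wild-type embryos at 6 hpf. Here the treated groups overlapped and lay far above both untreated groups. Bbc3 averaged 117.8 ± 14.3 CPM with CHX and BMP2/7 and 98.5 ± 29.5 CPM with CHX (SD, n = 3 each), against 6.10 ± 0.0244 CPM in untreated mutants (SD, n = 2). Sesn1, casp8 and phlda3 completed the p53 list members, and fosab, junbb, fosl1a, klf2a, klf11a and klf11b were the other immediate-early ones.

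Transcripts supplied by the egg made up another group. The maternal linker histone gene h1m was at 983, 737 and 1259.9 CPM with CHX and BMP2/7 and at 1119, 654 and 1235 CPM with CHX, against 91.9 and 132 CPM in untreated mutants and 46.4 and 67.7 CPM in wild-type embryos at 6 hpf. Both treated groups covered the same range. Levels of ccna1, the cyclin A of egg and early embryo, were 870.0, 767 and 962 CPM with CHX and BMP2/7 and 822, 559 and 797 CPM with CHX, against 80.0 and 57.6 CPM in untreated mutants and 33.7 and 32.6 CPM in wild-type embryos at 6 hpf. Untreated mutants had more of both than wild-type embryos in every library. Buc, which organizes the germ plasm of the oocyte, averaged 149.9 ± 24.6 CPM with CHX and BMP2/7 and 144 ± 44.2 CPM with CHX (SD, n = 3 each), against 9.72 ± 3.05 CPM in untreated mutants and 5.67 ± 0.781 CPM in wild-type embryos (SD, n = 2 each). The RNA-binding protein genes rbpms2b, larp6b and slbp2 were the other members of the egg list. Beside these, the summed level of 4 germ cell markers (nanos3, dnd1, ddx4 and ca15b), none of them among the 200, was between 802 and 826 CPM with CHX and BMP2/7 and between 676 and 821 CPM with CHX, against between 288 and 373 CPM in untreated mutants and between 228 and 315 CPM in wild-type embryos at 6 hpf. Most of each sum was ddx4, with means of 628 CPM with CHX and BMP2/7, 574 CPM with CHX, 297 CPM in untreated mutants and 237 CPM in wild-type embryos. The part of these markers in the result was not tested.

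**Figure D3:**
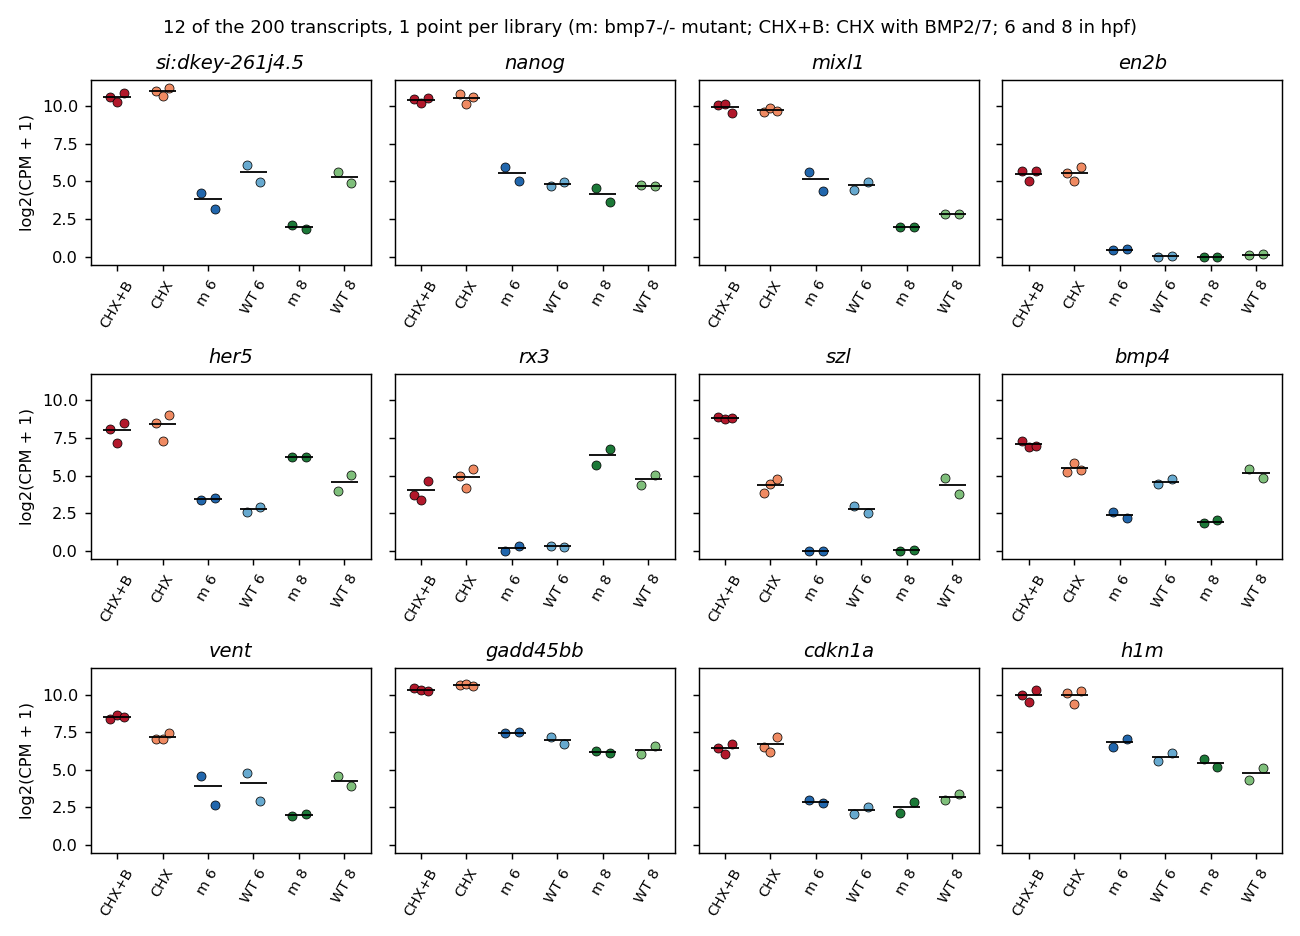
Levels of 12 of the 200 transcripts as log2(CPM + 1), 1 point per library, with a line at the log2 of the group mean plus 1. For en2b, nanog, cdkn1a and h1m both CHX-treated groups lie far above all untreated libraries, and szl is highest with BMP2/7. At 8 hpf rx3 is at treated levels in untreated wild-type embryos and above them in untreated mutants.

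The 200 were also higher in the injected mutants than in wild-type embryos, in libraries that the rule did not use, with 6 not called. Mutants with CHX and BMP2/7 were set against wild-type embryos at 6 hpf in a fit of all 14 libraries (edgeR's quasi-likelihood test, p-values adjusted by the Benjamini-Hochberg method over 10776 genes, called under 0.05). All 200 transcripts passed the filter on low counts in this fit, 194 were higher and none was lower. Of these, 10 passed only because the CHX-treated libraries, where they are high, were in the fit, among them en2b, LOC100537860, aste1a and si:ch211-198m1.1, so their calls are a description. Among the 190 that passed the filter in the untreated libraries alone, 184 were higher. In the same comparison 30.1% of all genes were called higher and 31.9% lower. Every injected library was above every wild-type library for all 200, as it was for 43% of all genes. The median fitted log2 change was 3.62, against -0.02 for all genes tested. Without the TMM scaling that this fit uses, the median of all genes moved to 0.49. Since same-numbered libraries of both CHX-treated groups deviated together, with correlations of 0.425, 0.761 and 0.658 over 9450 genes, the injected libraries are not a separate sample of the treatment. Genotype, labelled stage and treatment all differ in this comparison and cannot be told apart.

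Of the 8 largest changes in that comparison, 3 rested on a single wild-type count. For en2b, 1845 counts in the injected libraries stood against 1 in the wild-type libraries, a ratio of 1931 after scaling to library totals with an exact 95% counting interval of 346 to 76320. LOC100537860, a non-coding transcript, had 535 counts against 1 and a ratio of 560.0 (100.1 to 22160), and aste1a had 398 counts against 1 and a ratio of 417 (74.3 to 16490). These intervals cover counting error only. The RNA-binding protein gene rbm46 had a log2 change of 7.15 ± 0.50 (SE, adjusted p = 2.45e-07). The taurine transporter gene slc6a6b had 6.98 ± 0.81 (adjusted p = 9.52e-06), si:rp71-45k5.2 had 6.87 ± 0.73 and dlb had 6.45 ± 0.65. The change of 6.41 for si:ch211-198m1.1 is a description, as are those of en2b, LOC100537860 and aste1a. In the libraries of both groups rbm46 had 24.2, 25.1 and 25.98 CPM in injected mutants, against 0.153 and 0.0864 CPM in wild-type embryos. The calls of rbm46, slc6a6b, si:rp71-45k5.2 and dlb were kept under each of 13 alternative fits. The rule chose these genes for high levels under CHX, so neither their p-values nor the kept calls are separate support.

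All 8 immediate-early members, all 6 p53 list members and all 5 egg list members were higher in the injected, CHX-treated mutants than in wild-type embryos. So were 194 of all 200, which the rule chose for high levels under CHX. These counts therefore say nothing particular to the groups, and the same choice lies behind the p-values of single members given below. Over the whole lists, members included, 24 of 42 tested immediate-early genes were higher and 5 lower, and 12 of 18 p53 list genes were higher and 2 lower. Of egg and oocyte genes, 19 of 37 were higher and 10 lower. Among all genes tested, 30.1% were called higher and 31.9% lower. The log2 change was 2.87 ± 0.20 for gadd45bb (SE, adjusted p = 2.35e-07), 3.93 ± 0.38 for cdkn1a (adjusted p = 2.02e-06), 3.61 ± 0.36 for h1m (adjusted p = 2.54e-06) and 4.201 ± 0.40 for ccna1 (adjusted p = 2.01e-06). It was 5.14 ± 0.37 for nanog (adjusted p = 2.61e-07), 4.80 ± 0.38 for mixl1 (adjusted p = 5.42e-07) and 5.82 ± 0.45 for ndr1 (adjusted p = 4.51e-07). The draculin-type gene si:dkey-261j4.5 had a log2 change of 4.48 ± 0.42 (adjusted p = 1.82e-06), szl one of 5.79 ± 0.43 (adjusted p = 5.42e-07) and bmp4 one of 2.02 ± 0.28 (adjusted p = 3.67e-05). Not every mesendoderm gene moved this way, since 14 of 35 tested genes of the Nodal and mesendoderm list were higher and 14 were lower. Enveloping layer genes moved the other way: 2 of 28 tested were higher and 22 lower. The summed level of 7 enveloping layer markers was between 333 and 758 CPM in injected mutants and between 507 and 1184 CPM with CHX alone, against between 5227 and 8682 CPM in the untreated libraries, and its part in the other changes was not tested. The 6 members not called were rhoub, abhd17c, atp2b4, ago4, cnksr3 and pard3ba. Ago4 showed the smallest difference, with 79.3, 113.03 and 103 CPM in injected mutants against 64.9 and 29.2 CPM in wild-type embryos.

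**Figure D4:**
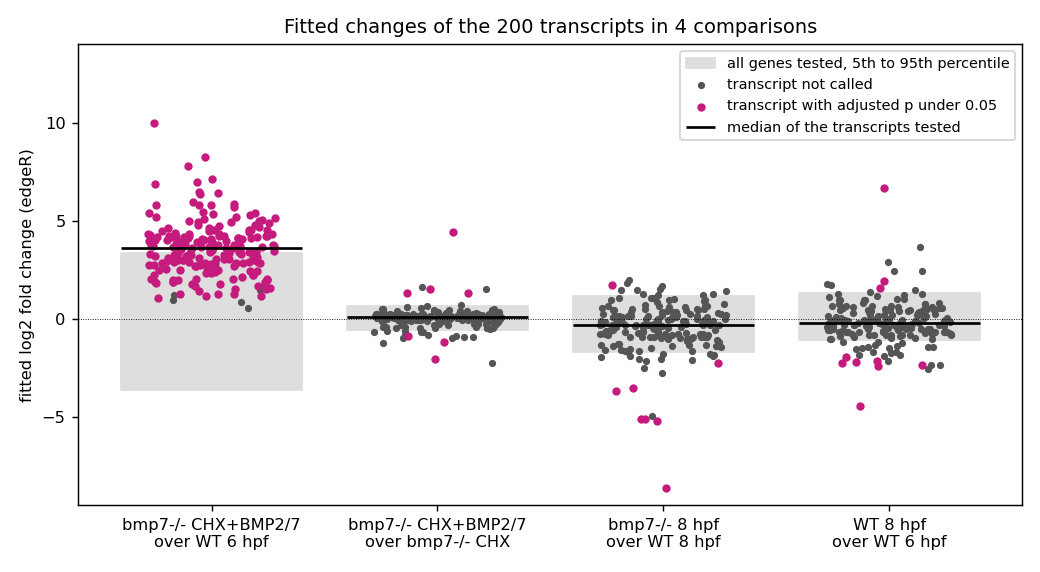
Fitted log2 fold changes of the 200 transcripts (1 point each) in 4 comparisons, with the median of those tested as a black line and the range of all genes tested between the 5th and 95th percentile in grey. The median is 3.62 for injected CHX-treated mutants over wild-type embryos at 6 hpf, and 0.08, -0.29 and -0.23 in the other comparisons.

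Between 6 hpf and 8 hpf in untreated wild-type embryos most of the 200 showed no called change. The fit held the 8 untreated libraries as 4 groups, and 190 of the 200 passed the filter on low counts. Of these, 3 were higher at 8 hpf and 7 were lower, that is 1.58% and 3.68%, where 1.05% and 0.628% of all 10029 genes tested were called. Same-numbered wild-type libraries of the stages deviated together (r = 0.492), which this fit leaves out. Both counts were larger with replicate number as a block, as given in the closing section. The shares of all genes called with that block are not given, so nothing is read from the larger counts. The median log2 change was -0.23 for the members and 0.02 for all genes. Both libraries of 8 hpf lay under both of 6 hpf for 62 of the 200 (31%), against 16% of all genes, and above them for 42 (21%), against 24.4%.

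Rx3 was the gene with the largest rise. It had 20.2 and 31.9 CPM in wild-type embryos at 8 hpf, against 0.256 and 0.216 CPM at 6 hpf, a log2 change of 6.67 ± 0.64 (SE, edgeR, adjusted p = 0.00572) that was called under all 12 alternatives. Her5 rose to 15.04 and 31.6 CPM at 8 hpf, against 4.86 and 6.69 CPM at 6 hpf (1.93 ± 0.35, adjusted p = 0.0348). Stim1a, which encodes a calcium sensor of the endoplasmic reticulum, rose to 47.5 and 32.4 CPM, against 11.2 and 13.8 CPM (1.59 ± 0.26, adjusted p = 0.0265). The lower transcripts were morc3b, zgc:173816, myof, zgc:100951, fam172a, mixl1 and cdc34a. Morc3b fell to 0.559 and 0.248 CPM at 8 hpf, against 10.4 and 6.44 CPM at 6 hpf (-4.45 ± 0.58, adjusted p = 0.0148). Mixl1 had 6.09 and 6.01 CPM against 20.97 and 29.9 CPM (-2.15 ± 0.42, adjusted p = 0.0427), and cdc34a, a ubiquitin-conjugating enzyme gene, had 6.84 and 8.36 CPM against 28.1 and 26.1 CPM (-1.92 ± 0.25, adjusted p = 0.0148). In each of these the stages did not overlap. No egg list member was called in this fit. Ccna1 had 9.38 and 11.96 CPM at 8 hpf against 33.7 and 32.6 CPM at 6 hpf (-1.72 ± 0.46, adjusted p = 0.106). H1m had 19.3 and 34.1 CPM against 46.4 and 67.7 CPM (-1.17 ± 0.33, adjusted p = 0.112). Of 12 alternative fits, 3 called ccna1 lower and 3 called h1m lower. Nanog stood at 25.97 and 24.7 CPM against 24.8 and 30.2 CPM. Fewer members were called lower without replicate 1 of 6 hpf, and without replicate 1 or replicate 2 of 8 hpf. Each of these fits leaves 1 library in a group. The shares of all genes called in them are not given, so nothing is read from this. With only the 4 wild-type libraries in the fit, 1 was higher (rx3) and none lower, with 42 of the 190 at an unadjusted p under 0.05 in the fit of 8 libraries.

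Genotype was compared in untreated embryos at 8 hpf, with libraries that the rule did not use, in the same fit. In bmp7 mutants 1 of the 190 tested transcripts was higher than in wild-type embryos and 7 were lower, or 0.526% and 3.68%, where 1.18% and 1.91% of all genes were called. The median log2 change was -0.29 for the members and -0.01 for all genes. Both mutant libraries lay under both wild-type ones for 82 of the 200 (41%), against 28.1% of all genes, and above them for 28 (14%), against 19.6%. Wild-type libraries of 8 hpf also served the comparison of stages, so that both sets of values share them. The rule divided by the untreated mutants of 6 hpf, which favours transcripts that are low in mutants. Same-numbered mutant libraries of both stages also deviated together (r = 0.386). The shares of lower and higher members are therefore not read against those of all genes.

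The 7 lower transcripts were szl and bmp4 of the BMP pathway list, the draculin-type genes si:dkey-261j4.5 and si:dkey-261j4.3, drl and zgc:136538, which are 1 signal counted as 2, and ranbp3a. Sizzled (szl), a secreted inhibitor of the Chordin-cleaving proteases, had 0 and 0.0517 CPM in mutants at 8 hpf, against 27.4 and 12.4 CPM in wild-type embryos. This was 1 count against 641, a wild-type to mutant ratio of 484 with an exact 95% counting interval of 86.6 to 19160 (edgeR, adjusted p = 0.00204). The ligand gene bmp4 had 2.58 and 3.10 CPM in mutants, against 42.0 and 28.2 CPM in wild-type embryos (-3.53 ± 0.35, adjusted p = 0.00148), and it was called under all 12 alternatives. Transcript si:dkey-261j4.5 had 3.38 and 2.54 CPM in mutants, against 47.2 and 29.3 CPM (-3.68 ± 0.56, adjusted p = 0.0128), and si:dkey-261j4.3 had 0.199 and 0.362 CPM against 16.1 and 9.54 CPM (-5.22 ± 0.72, adjusted p = 0.0082). For drl, 3 mutant counts stood against 153 in wild-type embryos, a ratio of 38.5 (12.9 to 189) with an adjusted p of 0.0338. Ranbp3a had 1.59 and 1.60 CPM against 10.6 and 5.20 CPM (-2.23 ± 0.45, adjusted p = 0.0364). No mutant library overlapped a wild-type one in any of these.

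Vent and tp63, which the BMP pathway list also holds, were not called in this fit. Of 12 alternative fits, 3 called vent lower and 2 called tp63 lower. Vent, a ventral homeobox repressor, had 2.78 and 3.26 CPM in mutants against 22.7 and 14.1 CPM in wild-type embryos (-2.52 ± 0.83, adjusted p = 0.117), and tp63, a regulator of epidermis, had 1.59 and 0.310 CPM against 5.22 and 5.70 CPM (-2.77 ± 0.78, adjusted p = 0.0867). Of the 40 tested genes of the dorsal-ventral and BMP pathway list as a whole, 1 was higher and 18 were lower. Her5 was the one transcript called higher, with 73.1 and 73.6 CPM in mutants against 15.04 and 31.6 CPM in wild-type embryos (1.71 ± 0.34, adjusted p = 0.035). Rx3 had 51.2 and 109.9 CPM in mutants against 20.2 and 31.9 CPM (1.70 ± 0.45, adjusted p = 0.0743). For both neural genes the mutant libraries exceeded the wild-type ones without overlap. Fewer members were called lower without replicate 1 of the wild-type embryos at 8 hpf, and without replicate 1 or replicate 2 of the mutants. Each of these fits leaves 1 library in a group. No share of all genes called is given for them, so nothing is read from this.

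At 6 hpf the mutant libraries entered the rule, so genotype at that stage is a description with no test. The median difference in log2(CPM + 1) between mutants and wild-type embryos was -0.05 for the 200 and -0.02 for all genes. Szl had no count in either mutant library, against 6.75 and 4.66 CPM in wild-type embryos, which makes it at least 49.7-fold lower in mutants with a floor of 3 counts over the group. Bmp4 had 4.88 and 3.59 CPM in mutants against 20.6 and 25.96 CPM. Vent was split by replicate rather than by genotype, with 23.5 and 5.23 CPM in mutants against 26.3 and 6.44 CPM in wild-type embryos. Slc16a3, a lactate transporter gene, had 36.7 and 30.7 CPM in mutants against 9.31 and 8.68 CPM.

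With BMP2/7, szl, bmp4, vent and tnfrsf21 were the members called higher in the fit that did not pair the libraries by replicate number. In CHX-treated mutants with BMP2/7 against those with CHX alone, 4 of the 200 (2%) were higher and 3 (1.5%) lower, where 1.91% and 0.392% of 9444 genes were called (fit of the 6 CHX-treated libraries, edgeR). The median log2 change was 0.08 for the members. All 3 libraries with BMP2/7 lay above all 3 with CHX alone for 15 of the 200 (7.5%), against 7.77% of all genes, and below them for 19 (9.5%), against 5.93%. The 3 libraries with CHX alone also entered the rule, which favours lower values with BMP2/7 and fewer calls of higher ones. The shares of higher members are therefore not read against those of all genes. Nothing is read from lowered transcripts, in number or singly. Ranked by all 6 CHX-treated libraries over all 4 untreated ones of 6 hpf, a list of the same length had 16 higher and 1 lower. That rank used the injected libraries, which favours transcripts higher with BMP2/7, so nothing is read from its counts either. The numbers of these libraries paired them, and the counts above leave this pairing out. With replicate number as a block 9 members were higher and 22 lower, where 4.43% and 3.47% of all genes were called. The 9 were szl, bmp4, vent and tnfrsf21 together with tp63, dlb, fam46ba, junbb and slc4a2a.

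Szl had the largest response. It was at 471, 425 and 453 CPM with BMP2/7, against 13.2, 20.5 and 26.5 CPM with CHX alone, a log2 change of 4.45 ± 0.25 (SE, adjusted p = 0.000155) that was called under all 15 alternatives. Bmp4 was at 157, 120.2 and 123.4 CPM against 37.4, 57.2 and 39.8 CPM (1.53 ± 0.21, adjusted p = 0.00894), and this call was lost without replicate 1 of the CHX libraries (adjusted p = 0.0602). Vent was at 336, 408 and 371 CPM against 131, 133 and 177 CPM (1.31 ± 0.15, adjusted p = 0.00402), and tnfrsf21, a death receptor gene, was at 31.0, 28.6 and 37.4 CPM against 12.1, 11.9 and 14.4 CPM (1.30 ± 0.17, adjusted p = 0.00635). The groups were apart in all 4, and in a fit of all 14 libraries vent and tnfrsf21 were not called. All 4 genes were present under CHX alone at levels above those of untreated mutants, since the rule required it. For szl, CHX alone gave at least 176-fold more than untreated mutants at 6 hpf, where no count was found.

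Tp63 and the Delta ligand gene dlb also had higher values with BMP2/7 but missed the threshold without the block. Of 15 alternative fits, 6 called tp63 and 9 did not, and 5 called dlb and 10 did not. The block and DESeq2 called both. Tp63 was at 43.5, 48.3 and 27.6 CPM with BMP2/7 against 7.92, 17.8 and 12.3 CPM with CHX alone (1.60 ± 0.35, adjusted p = 0.0663, and 0.00140 with the block and 0.000144 by DESeq2). Dlb was at 184, 110.99 and 110.6 CPM against 43.6, 64.6 and 26.7 CPM (1.54 ± 0.34, adjusted p = 0.0752, and 0.00189 with the block and 0.000165 by DESeq2). Neither gene overlapped between the groups. Of the list of dorsal-ventral and BMP pathway genes, 24 of 42 tested were higher and none lower. Among the study's own list of 57 BMP-activated genes 46 of 53 tested were higher, but that list was chosen on these samples and is not independent evidence. Szl, bmp4, vent and tp63 are the members that both lists hold.

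**Figure D5:**
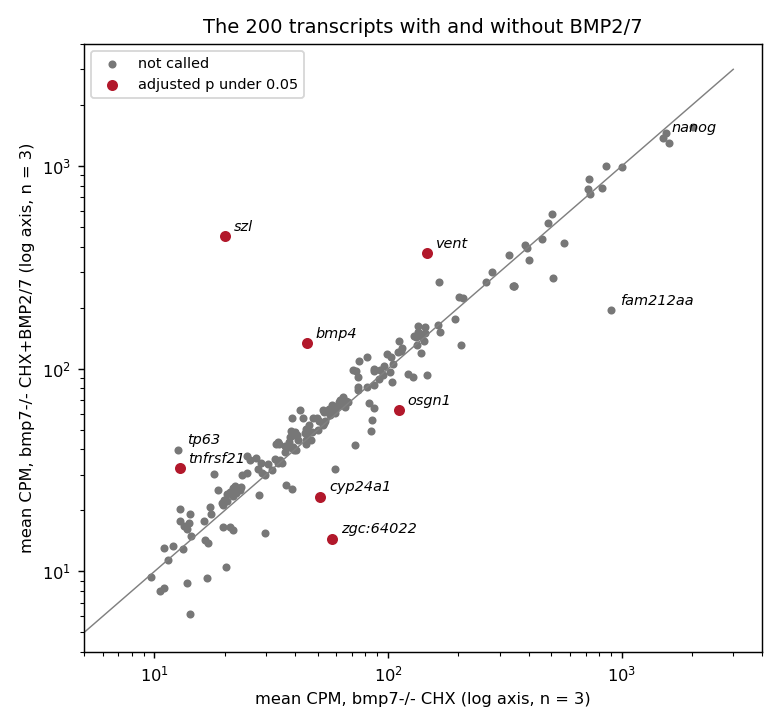
Mean CPM of the 200 transcripts in CHX-treated bmp7 mutants with BMP2/7 (vertical) against CHX alone (horizontal), both on log axes, 3 libraries each, with the line of equal levels. Red points have an adjusted p under 0.05 in the fit without the replicate block. Of these szl, at 449 against 20.1 CPM, lies farthest from the line, and nanog, not called, lies on it.

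Lower levels with BMP2/7 are given as a description with no test, because the rule selected for high values under CHX alone. The lowest log2 change of the 200 was that of fam212aa, named inka1a in RefSeq, with 132, 113.7 and 338 CPM with BMP2/7 against 918, 503 and 1277 CPM with CHX alone (-2.25 ± 0.46, SE). In both groups its replicate 2 was the lowest and its replicate 3 the highest. The 3 transcripts counted as lower were zgc:64022, osgn1 and cyp24a1. The clone-named gene zgc:64022 was at 13.6, 7.71 and 22.1 CPM against 67.6, 36.3 and 67.9 CPM (-2.02 ± 0.37). Osgn1 was at 59.99, 53.9 and 72.8 CPM against 119.7, 114.4 and 98.9 CPM (-0.87 ± 0.14). Cyp24a1, the vitamin D 24-hydroxylase gene, was at 17.3, 21.8 and 31.2 CPM against 44.5, 46.6 and 62.4 CPM (-1.17 ± 0.24). The groups did not overlap in these 4 genes. The count of 3 became 0 without replicate 1 of the CHX libraries or without replicate 1 or replicate 2 of the injected ones. Shares of all genes called in those fits are not given, so nothing is read from this change. No member of the egg list was called with or without the block.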

How the data were processed

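Whole-embryo poly(A) RNA was sequenced in 14 zebrafish libraries. The authors aligned the reads to GRCz11 with RNA-seq Unified Mapper; which program counted reads, and whether it used strand, is not stated in these sources. The deposited table holds raw counts per RefSeq transcript (14532 rows). It also holds normalized values and the authors' own comparisons, which were not used. CPM were computed over all rows. Genes were tested on counts with edgeR 4.0.16 (R 4.3.3): TMM factors, filterByExpr with a minimum count of 10, quasi-likelihood test, Benjamini-Hochberg adjustment over all genes with Best = 1, threshold 0.05. SE is that of the fitted log2 change. DESeq2 1.42.0, other scalings, filters and library sets, each replicate left out, the replicate block and other ranks were the alternatives. The steps were tested on simulated data, drawn without any sharing between same-numbered libraries. False calls were 11 of 137 for wild-type stages and 9 of 136 for genotypes at 8 hpf. They were 8 of 153 for injected mutants against wild-type embryos and 15 of 181 for BMP2/7 against CHX alone. Nothing in the labels says that replicates came from separate clutches, so p-values measure the spread between these pools.

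The 200 transcripts and the gene lists were chosen with earlier results of these data known. Named genes were the 20 of highest rank, the 2 on either side of the border, up to 8 per comparison and direction with the largest called change and no overlap, up to 6 per list and the 10 of highest CPM under CHX; others are said to be chosen on their values or complete a count, a group or a list. Replicate numbers were taken to pair the 2 CHX-treated groups because all 3 same-numbered pairs deviated together (r = 0.425, 0.761 and 0.658). No label gives the source of the pairing. The main fit of these groups still left the pairing out, and the replicate block was an alternative fit. Elsewhere the numbers were shared by fewer than 3 pairs, and the main fits left them out as well. There r was 0.492 for wild-type stages, 0.386 for mutant stages, 0.262 for genotypes at 6 hpf and -0.0308 for genotypes at 8 hpf. RefSeq names came from the GRCz12tu annotation, which matched 197 of the 200 by transcript; no coordinates or sequences were used. CPM are not divided by length, so levels are compared within a transcript.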

Additional observations from a re-analysis of the deposited data

How the results depend on the processing

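Of 42 single-gene calls in these comparisons, 21 were kept under every alternative fit, 21 were lost under at least 1 and none was reversed. Most kept calls were of injected mutants against wild-type embryos at 6 hpf, a comparison that the rule favours, where none was lost. Elsewhere only rx3 between wild-type stages, bmp4 between genotypes at 8 hpf and szl with BMP2/7 were kept. The lower value of cyp24a1 with BMP2/7 was not among the 42, and its call was lost under 9 of 15 alternatives. Counts of members depended more on the fit, and the cause was not tested. Shares of all genes called moved with the fit too. With BMP2/7 they were 1.91% higher and 0.392% lower, and 4.43% and 3.47% with the replicate block. The counts that follow stand without such shares and are not read as a result about the members. The rank over all 6 CHX-treated libraries used the injected ones, which favours transcripts higher with BMP2/7. For wild-type embryos at 8 hpf against 6 hpf, the members higher numbered 3, with 8 by DESeq2, 1 with only the 4 wild-type libraries, 7 with the replicate block and 1 to 3 leaving out 1 library; the members lower numbered 7, with 12 by DESeq2, 12 without a filter, 0 with only the 4 wild-type libraries, 12 with the replicate block and 0 to 7 leaving out 1 library. For mutants against wild-type embryos at 8 hpf, the 1 higher became 7 by DESeq2, 4 without a filter, 3 with only the libraries of 8 hpf, 3 with the replicate block, 2 with a pseudocount of 5 in the rank, 2 ranked by all 6 CHX-treated over all 4 untreated libraries of 6 hpf, and 0 to 1 leaving out 1 library; the 7 lower became 22, 15, 11 and 19 under the first 4 of these and 1 to 8 leaving out 1 library. For injected mutants against wild-type embryos at 6 hpf, 194 higher became 98 with the 100 highest ranks and stayed between 187 and 194 leaving out 1 library, with 0 lower throughout. With BMP2/7 against CHX alone, the 4 higher became 7 by DESeq2, 2 with all 14 libraries, 9 with the replicate block, 9 with RLE factors and the block (added after seeing the data), 1 with the 100 highest, 2 with a pseudocount of 5 and 16 with the rank over all libraries, and 3 to 6 leaving out 1 library; the 3 lower became 10 by DESeq2, 22 with the block under either scaling, 1 with the 100 highest, 1 with the rank over all libraries and 0 to 4 leaving out 1 library.

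The list itself shared 141 of 200 transcripts with the list at a pseudocount of 5, 187 with TMM-scaled CPM, 148 with the rank over all 6 CHX-treated and 4 untreated libraries, 165 to 189 leaving out 1 library of the rule, 150 with the injected libraries in place of those with CHX alone and 57% with injected mutants over wild-type embryos at 6 hpf; the last 3 kinds were added after seeing the data. With 2 libraries a group, recovery was simulated for the comparison of stages over 10029 genes. It was 14.9% for 2-fold, 76.1% for 4-fold and 98.5% for 8-fold changes, so 2-fold differences between these groups were mostly not detectable. The changed genes of the simulation left out those of low level. Of the members, 16% averaged under 1 CPM in wild-type embryos at 6 hpf and 18.5% at 8 hpf. Recovery at such levels was not measured. Replicate 1 of the mutants at 8 hpf had the lowest total count, where 3 counts are 0.596 CPM.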

Other observations

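Some of the 200 differed between the replicates of untreated embryos more than between the genotypes at 6 hpf. Vent had 23.5 CPM in replicate 1 and 5.23 CPM in replicate 2 of the mutants, against 26.3 and 6.44 CPM in the wild-type embryos. Baiap2a had 9.91 and 3.82 CPM in the mutants, against 9.82 and 4.02 CPM in the wild-type embryos, with replicate 1 higher in both. Same-numbered libraries of these 2 groups deviated together with a correlation of 0.262 over 9450 genes, and whether they share a collection is not given in the labels.

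The clone-named transcript zgc:100951, ranked 9, had 598, 537 and 1173 CPM with CHX and BMP2/7 and 509.6, 557 and 1092 CPM with CHX, and replicate 3 was the highest in both. In untreated embryos it had 28.4 and 11.5 CPM in mutants against 52.5 and 65.6 CPM in wild-type embryos at 6 hpf, and 3.18 and 3.47 CPM in mutants against 11.4 and 15.05 CPM at 8 hpf, so that wild-type levels were higher at both stages in these libraries. The files give this transcript no function.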
